A study of Mus musculus with 9 samples.

Results

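Tuft cells are rare chemosensory cells of the gut lining, and the genes described here are 9 that are widely used to recognise them or that carry out their work: Dclk1, Trpm5, Pou2f3, Gfi1b, Il25, Ptgs1, Plcb2, Alox5ap and Avil. They were chosen by name from knowledge of the cell type, with earlier results of these data known. They are 9 of the 24505 genes in the GRO-seq table. In these cultures of mouse duodenum, the 2 transcription factor genes of the set were transcribed most in the culture labelled as M cells, while Il25, which encodes the cytokine that tuft cells release, was listed at 0 in every library. No culture was labelled as tuft cells.

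A tuft cell senses luminal signals through a taste-like cascade, in which G protein-coupled receptors act through a phospholipase C to release calcium and open the cation channel TRPM5. It answers by releasing the cytokine IL-25, eicosanoids and acetylcholine, and is known in the small intestine for starting the type 2 immune response to worms and protists. The POU-domain factor POU2F3 is required for the lineage to form.

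Transcription was measured by GRO-seq, in which nuclei are isolated and only RNA that polymerases are in the act of extending is sequenced, in organoid cultures, or mini-guts, from duodenum, with 2 libraries per culture. The RANKL culture carries the label intestinal M cell, a type that carries antigen from the lumen to immune cells, ENRI the label enterocyte and WENRC the label intestinal stem cell; the labels do not spell out these abbreviations, and give no strain or age. The ENRI and WENRC libraries are numbered by mouse, 1 or 2, so each mouse gave 1 library to each of those cultures, and the RANKL libraries carry only a replicate number. H3K27me3, the repressive histone mark laid down by PRC2, was profiled by ChIP-seq with 2 RANKL libraries, which the authors pooled, and 1 WENRC library. RANKL names a cytokine of the TNF family that drives M cell differentiation.

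The labelled cell types were checked by markers. The summed level of 5 M cell markers (values taken out of log2 and added) was 2500 to 2670 in the RANKL libraries, 104 to 108 in ENRI and 122 to 139 in WENRC, and all 5 were called in both RANKL comparisons, although Sox8, under 3.32 (the log2 value set for testing) in ENRI and WENRC, was tested only because it is high in RANKL, and Gp2 reached that value in 1 library outside RANKL. Stem markers summed to 13282 to 14196 in WENRC against 9016 to 9791 in RANKL and 1814 to 2536 in ENRI. Of the 5, only Lgr5 was called lower in RANKL than in WENRC, and 2 were higher in RANKL, uncalled. Olfm4 had 10.90 and 11.05 in RANKL against 8.83 and 9.12 in WENRC. Enterocyte markers summed to 40770 to 67191 in ENRI against 22622 to 25075 in RANKL and 2233 to 6041 in WENRC. All 5 were lower in RANKL than in ENRI, but only Fabp1 was called, and Sis weighs most in the sum. Between WENRC and ENRI all 5 of each list were called, stem markers higher in WENRC and enterocyte markers lower. In bulk samples such as these, fewer cells of a type and less RNA per cell cannot be told apart.

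GRO-seq values below are log2 values normalized by the authors. Means are given ± SD over 2 libraries, a difference is a log2 difference of means, and FDR is the Benjamini-Hochberg adjusted p of limma over the 16563 genes tested, called under 0.05. GRO-seq depth is unknown. Nothing in the labels says that the RANKL libraries came from separate animals, so their spread may be technical. The scale, as inferred from the values, draws the libraries of a gene with few reads toward each other. A low value is thus not a read count, and a difference between cultures in a low gene is understated. Genes were tested where at least 2 libraries reached 3.32, which is log2 of 10. Of the 9 members, 6 were tested; Plcb2 and Alox5ap lay under that value in every library, and Il25 was listed at 0 in all 6. None of the 9 overlaps another gene of the table.

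**Figure D1:**
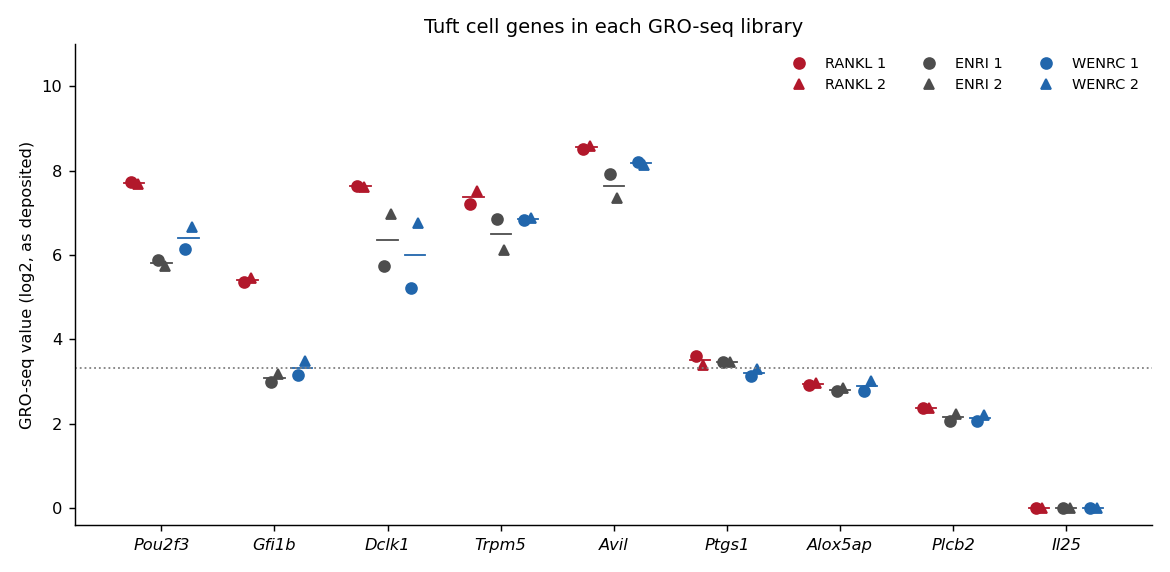
Deposited log2 GRO-seq value of each of the 9 genes (y axis) in the 6 libraries: colour gives the culture, circles are libraries numbered 1 and triangles libraries numbered 2, short lines are means of 2, and the dotted line is the 3.32 threshold for testing. Gfi1b stands above 5 in both RANKL libraries and at most at 3.50 in the other 4, and Dclk1 splits by mouse in ENRI and WENRC.

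Pou2f3 (NM_011139, chromosome 9, 42932022 to 43013838 on the minus strand, mm9) encodes the factor on which the tuft lineage depends. Its values were 7.74 and 7.68 in RANKL, 5.89 and 5.74 in ENRI, and 6.14 and 6.65 in WENRC. Both RANKL libraries lay above all of the others, and WENRC lay above ENRI without overlap. Pou2f3 was higher in RANKL than in ENRI by 1.89 (SE 0.23, FDR 0.00531) and than in WENRC by 1.31 (SE 0.23, FDR 0.0194). Between WENRC and ENRI the difference of 0.58 did not pass (SE 0.23, FDR 0.137). In the authors' deposited table the 2 RANKL differences were 2.76 (adjusted p 3.83e-08) and 1.81 (adjusted p 2.04e-05). The call against WENRC was lost without any 1 of the 4 libraries compared. The difference was then 1.28 without RANKL 1, 1.34 without RANKL 2, 1.05 without WENRC 1 and 1.57 without WENRC 2. The call against ENRI was lost without either RANKL library, with differences of 1.86 without RANKL 1 and 1.92 without RANKL 2. These fits leave 1 library in a culture and called few genes of any kind, so the losses are not particular to Pou2f3.

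Gfi1b (NM_001160406, chromosome 2, 28464970 to 28477502 on the minus strand, mm9) encodes a zinc-finger repressor that marks tuft cells in gut epithelium and is also a factor of the erythroid and megakaryocyte lineages. It had the largest differences of the 6 tested members in both RANKL comparisons. Its values were 5.37 and 5.46 in RANKL, 2.98 and 3.17 in ENRI, and 3.14 and 3.50 in WENRC. The RANKL libraries stood far above the other 4, which lay close together near the threshold. The difference was 2.34 against ENRI (SE 0.20, FDR 0.00273) and 2.09 against WENRC (SE 0.20, FDR 0.00418); ENRI and WENRC differed by 0.24 (SE 0.20, FDR 0.46). Since Gfi1b reached the threshold for testing through its RANKL libraries (3 libraries reached it), its inclusion among tested genes depended on its being high there. The authors' deposited table, whose fold changes are not drawn together in this way, gives 8.10 against ENRI (adjusted p 2.57e-06) and 5.09 against WENRC (adjusted p 7.95e-09). Without 1 RANKL library the limma calls were lost, in fits that called few genes of any kind. The differences were then between 2.05 and 2.39. With 10 added to each value on the linear scale they were 1.51 against ENRI and 1.39 against WENRC, and both were called.

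Blood cells also use Gfi1b, Ptgs1, Plcb2 and Alox5ap, so their markers were measured beside these genes. Of 5 markers of mast cells and basophils, Fcer1a was listed at 0 in all libraries and the other 4 lay under the threshold, with a summed level of 5.57 to 6.17 in RANKL, 5.65 to 7.18 in ENRI and 5.70 to 6.02 in WENRC. Of 7 leukocyte markers 4 were tested, and their summed level was 185 to 270 in RANKL, 195 to 239 in ENRI and 216 to 231 in WENRC. Csf1r, at 6.78 to 7.51, was the highest of these markers in each library and weighs most in the sum. In both RANKL comparisons limma called 0 of the 4, with 0 at an unadjusted p under 0.05 and 0 by the authors' adjusted p. Of all genes limma called 20.9% against ENRI and 12.1% against WENRC. A count of 0 in so few genes, here and below, therefore says little. Of 5 megakaryocyte and platelet markers 3 were tested, and the list summed to 314 to 315 in RANKL, 390 to 393 in ENRI and 341 to 489 in WENRC. The untested markers, Pf4 and Ppbp, lay under the threshold in every library. limma called 0 of the 3 in both RANKL comparisons. Against ENRI 0 had an unadjusted p under 0.05. Against WENRC 1 had (Gp1bb, lower in RANKL with a difference of -0.84), and 1 was called by the authors' adjusted p. Gp1bb overlaps the gene Sept5, so its value may hold reads of Sept5. The part of these cells in the Gfi1b values was not tested.

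The 250 bases before the annotated start of Gfi1b (RefSeq, GRCm38.p6, chr2:28621983-28622232, minus strand) are shown because this gene differed most, together with those of Avil (chr10:127000459-127000708, plus strand), whose start is the only one of the set with octamer letters. POU factors bind the octamer ATGCAAAT, and the search used that word and its 7-letter core ATGCAAA, which the octamer contains, on both strands, as well as AAATCAC, a word bound by GFI1-type repressors. Capitals mark matches to any of the words; positions count back from the start.
Gfi1b: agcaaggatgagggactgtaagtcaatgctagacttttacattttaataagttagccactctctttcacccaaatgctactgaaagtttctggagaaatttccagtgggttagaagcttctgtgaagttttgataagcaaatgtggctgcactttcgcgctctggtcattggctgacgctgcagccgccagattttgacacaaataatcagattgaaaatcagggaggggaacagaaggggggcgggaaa
Avil: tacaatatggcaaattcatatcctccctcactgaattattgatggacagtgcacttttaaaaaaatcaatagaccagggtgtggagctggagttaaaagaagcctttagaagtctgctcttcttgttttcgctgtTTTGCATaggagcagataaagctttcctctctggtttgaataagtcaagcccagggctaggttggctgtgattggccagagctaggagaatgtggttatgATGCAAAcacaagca
Promoters were found for 6 of the 9 members (7 promoters in all, 2 of them of Dclk1). The core was present at 2 positions in Avil, beginning at -115 on the reverse strand and at -15 on the forward strand, and in none of the other 6 promoters. No member promoter held the whole octamer or AAATCAC. Of 32851 promoters searched, 4.12% held the core, 1.60% the octamer and 2.75% AAATCAC. The words were chosen with the sequences in view, and a match describes letters, not binding.

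Avil (NM_009635, chromosome 10, 126437765 to 126458050, mm9) encodes advillin, an actin-bundling protein of the villin family found in the tuft of these cells. It had values of 8.52 and 8.58 in RANKL, 7.91 and 7.35 in ENRI, and 8.21 and 8.14 in WENRC. The 3 cultures did not overlap, with RANKL highest and ENRI lowest. Avil was higher in RANKL than in ENRI by 0.92 (SE 0.21, FDR 0.0318); the difference in the authors' deposited table was 1.12 (adjusted p 0.043). Its difference over WENRC was 0.38 (SE 0.21, FDR 0.297), and WENRC exceeded ENRI by 0.54 (SE 0.21, FDR 0.141). The call against ENRI did not hold when both WENRC libraries were left out of the fit (FDR 0.0764), nor without either of them. The first of these fits called 11.6% of all genes. The call was also lost without RANKL 1 (difference 0.95) or RANKL 2 (difference 0.89), in fits that called few genes of any kind.

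Trpm5 (NM_020277, chromosome 7, 150257434 to 150280547 on the minus strand, mm9), the channel gene, had values of 7.21 and 7.53 in RANKL, 6.85 and 6.12 in ENRI, and 6.83 and 6.87 in WENRC. Both RANKL libraries were above the other 4, and of the ENRI libraries 1 lay between the WENRC values and 1 under both. The difference from ENRI was 0.88 and did not pass (SE 0.28, FDR 0.0748). With the mouse number as a term for ENRI and WENRC (a replicate block), it passed at an FDR of 0.0489, and without ENRI 1 at 0.00376, where the difference was 1.25. Without ENRI 2 the difference was 0.51 (FDR 0.117), and a block on the library number in all 6 libraries gave an FDR of 0.102. The difference from WENRC was 0.52 (SE 0.28, FDR 0.284). Plcb2 (NM_001290790, chromosome 2, 118533253 to 118554174, mm9), the phospholipase gene upstream of the channel, had values of 2.36 and 2.38 in RANKL, 2.07 and 2.23 in ENRI and 2.05 and 2.20 in WENRC. It was too low to test; the authors' deposited table gives RANKL differences of 1.92 and 2.47 with adjusted p-values of 1 and 0.413.

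Dclk1 (NM_019978, chromosome 3, 55046448 to 55342990, mm9) encodes a doublecortin-like microtubule-associated kinase and is the most used tuft marker in mouse gut. Its values were 7.63 and 7.61 in RANKL. In the other cultures they followed the mouse: mouse 1 had 5.74 in ENRI and 5.21 in WENRC, and mouse 2 had 6.98 in ENRI and 6.76 in WENRC. Mouse 2 was thus above mouse 1 by 1.24 in ENRI and by 1.55 in WENRC, more than the 2 cultures differed within either mouse (WENRC minus ENRI -0.52 in mouse 1 and -0.22 in mouse 2).

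Dclk1 exceeded ENRI by 1.26 (SE 0.59, FDR 0.183) and WENRC by 1.63 (SE 0.59, FDR 0.133) in RANKL, and neither difference passed. With the mouse as a replicate block, both passed with the same differences, as the SE fell to 0.18 (FDR 0.00757 and 0.0053). That fit sets the RANKL libraries against the midpoint of the mice. A block on the library number in all 6 libraries, which the labels do not tie to animals in RANKL, called neither (FDR 0.0892 and 0.0685). Both RANKL libraries resembled those of mouse 2 in Xist and Y-linked genes: the Y-linked gene Ddx3y had 3.36 and 3.60 in RANKL, 3.46 and 3.28 in the libraries of mouse 2, and 8.50 and 8.29 in those of mouse 1. Against mouse 2 alone, the mean of RANKL was higher by 0.64 than in ENRI and by 0.86 than in WENRC. A fit without both mouse 1 libraries called these (FDR 0.00407 and 0.000153), but takes its spread from the RANKL pair only, assumes that the lone ENRI and WENRC libraries vary like it, and called 60.9% and 44.8% of all genes. Leaving out ENRI 2 also gave a call against ENRI (difference 1.88, FDR 0.0398), and leaving out either ENRI library gave one against WENRC (FDR 0.0296 and 0.0285), as did the 4 libraries compared alone (FDR 0.0276). Xist was 4.52 and 5.42 in mouse 1, 10.90 and 11.60 in mouse 2, and 11.94 and 12.18 in RANKL. By Xist and the Y-linked genes the 2 mice differ in sex, and the header dates their libraries differently. Mouse, sex and date therefore cannot be told apart, and the RANKL libraries differ from those of mouse 1 in sex as well as in culture.

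**Figure D2:**
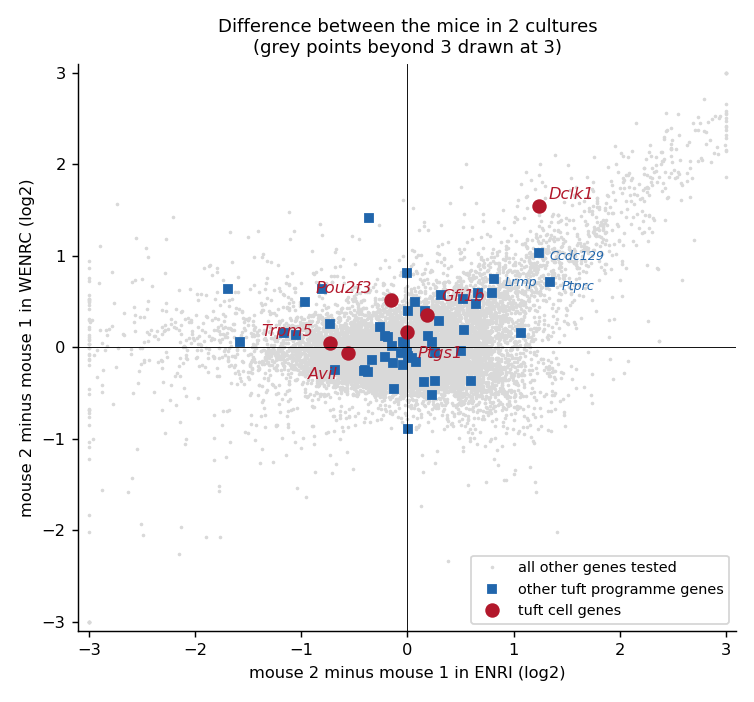
Mouse 2 minus mouse 1 (log2) in ENRI (x axis) and in WENRC (y axis) for each tested gene: red circles are the 6 tested tuft cell genes, blue squares the 52 other genes of the tuft programme, and grey points all others, drawn at 3 where they lie beyond it. Dclk1 lies at 1.24 and 1.55, away from the other 5 tested members, with Ccdc129, Lrmp and Ptprc on the same side.

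The split by mouse was not general among the members. Mouse 2 was higher by more than 0.5 in both cultures for 1 of the 6 tested members (Dclk1), 6 of the 52 tested other genes of the tuft programme (11.5%) and 6.19% of all genes. The 6 were Ccdc129 (1.24 in ENRI and 1.04 in WENRC), Lrmp (0.81 and 0.75), Ptprc (1.35 and 0.71), Inpp5d (0.80 and 0.59), Chat (0.66 and 0.59) and Rgs13 (0.52 and 0.52). Chat makes acetylcholine, Rgs13 damps G protein signals, and Ptprc and Inpp5d are also leukocyte genes. These genes are named because of their values. None of the 52 was lower in mouse 2 by that much in both cultures, against 0.912% of all genes.

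The tested genes whose 6 values ran closest to those of Dclk1, by Euclidean distance after centring each gene, were Rtn1 (0.331), Dock10 (0.445) and Chgb (0.490). Chgb encodes a granin of enteroendocrine cells. It had 10.13 and 10.64 in RANKL, 8.43 and 9.55 in ENRI, and 8.12 and 9.29 in WENRC. The summed level of 4 enteroendocrine markers was 1350 to 1849 in RANKL, 502 to 924 in ENRI and 427 to 754 in WENRC. Chgb, the highest of the 4 in each library, weighs most in the sum, which therefore largely repeats the gene chosen for its closeness. It was not called against ENRI (FDR 0.102) or WENRC (FDR 0.0871). Of the 4, 1 was called against ENRI (Neurod1) and 1 against WENRC (Chga). Both were higher in RANKL, where 10.4% and 8.53% of all genes were. Paneth cell markers also moved with RANKL: 3 of them summed to 1494 to 1760 in RANKL, 256 to 541 in ENRI and 351 to 500 in WENRC, and 2 of 3 were called higher in both RANKL comparisons (Defa24 and Mmp7). Of 4 goblet cell markers, 1 was called higher against ENRI (Spdef) and 2 against WENRC (Muc2 and Fcgbp). The part of enteroendocrine, Paneth or goblet cells in the Dclk1 values was not tested. For Pou2f3 the closest were Nt5dc2 (0.239), Arrb2 (0.259) and Prss32 (0.317). Their shared order of RANKL, WENRC and ENRI follows from the choice by distance.

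The effector genes among the 9 members were low. Other tuft programme genes of eicosanoid and acetylcholine synthesis were mixed, and are named here after their values were seen. Hpgds, Alox5 and Ltc4s had 8.96, 7.47 and 5.48 in RANKL 1, and Chat, Ptges and Ptgs2 had 3.47, 3.65 and 3.11. Il25 (NM_080729, chromosome 14, 55551532 to 55554673, mm9), which encodes the cytokine that tuft cells are known to supply, was listed at 0 in every library. Ptgs1 (NM_008969, chromosome 2, 36085946 to 36107791, mm9), the gene of the cyclooxygenase COX-1, had 3.60 and 3.40 in RANKL, 3.47 and 3.46 in ENRI, and 3.13 and 3.29 in WENRC. RANKL and ENRI overlapped and WENRC lay lowest, and no difference passed (0.04 over ENRI, FDR 0.897; 0.29 over WENRC, FDR 0.323). Alox5ap (NM_009663, chromosome 5, 150076580 to 150099729, mm9) encodes the protein that hands arachidonic acid to 5-lipoxygenase. Its values were 2.91 and 2.96 in RANKL, 2.77 and 2.84 in ENRI and 2.77 and 3.0 in WENRC, too low to test.

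**Figure D3:**
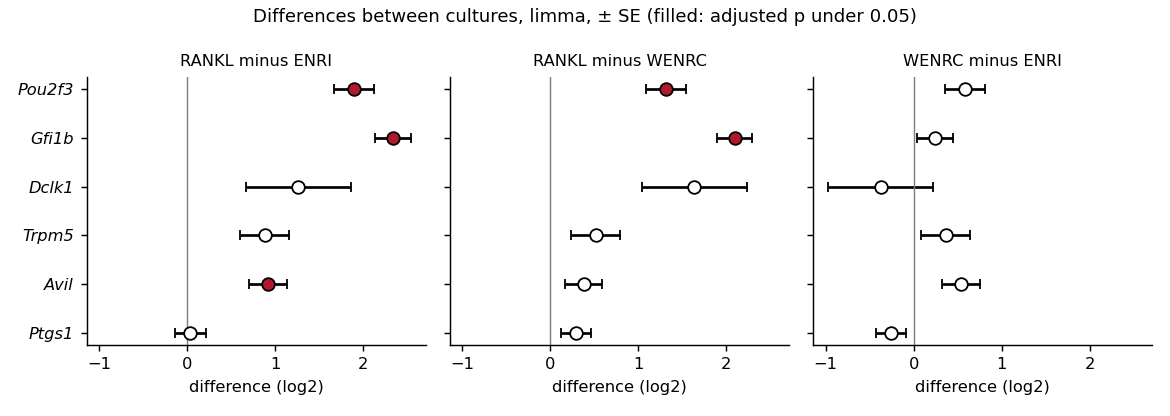
Differences between cultures (x axis, log2) for the 6 tested genes (rows) in the 3 comparisons; bars are ± SE from limma, and filled points have an adjusted p under 0.05. Filled points are Pou2f3, Gfi1b and Avil in RANKL minus ENRI, Pou2f3 and Gfi1b in RANKL minus WENRC, and none in WENRC minus ENRI.

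By comparison, 3 of the 6 tested members were called against ENRI, all higher in RANKL, where 10.4% of all genes were called higher and 20.9% in either direction; their median difference was 1.09 against -0.00 for all genes. Gfi1b is among the 3 and was tested through its RANKL libraries; with a higher filter, at log2 of 50, which leaves out Gfi1b and Ptgs1, 2 of 4 were called, where 26.6% of all genes were. The authors' adjusted p also called 3, where it called 19.6% of all genes. With the mouse as a block 5 were called, where 28.7% of all genes were called in either direction. Against WENRC, 2 of 6 were called, both higher, where 8.53% of all genes were called higher and 12.1% in either direction; the median difference was 0.91 against -0.01. The authors' adjusted p called 2, where it called 27.8% of all genes. With the mouse as a block 3 were called, where 17.8% of all genes were. With the higher filter 1 of 4 was called, where 15.7% of all genes were. Between WENRC and ENRI 0 of 6 were called by limma (2 at an unadjusted p under 0.05, Pou2f3 and Avil; 0 by the authors' adjusted p), where 14.6% of all genes were called, and 12.5% by the authors' adjusted p. The mouse as a block also called 0, where it called 21.4%. In 5 of the 6 both RANKL libraries lay above the other 4, Ptgs1 being the exception, as they did for 20.3% of all genes. The 2 RANKL comparisons share the RANKL libraries, and the members were chosen with earlier results of these data known.

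Compared per length (log2 value minus log2 of the gene length in kb), the order of levels in RANKL was Avil (4.21), Trpm5 (2.84), Gfi1b (1.77), Pou2f3 (1.35), Dclk1 (-0.59), Ptgs1 (-0.95), Alox5ap (-1.60) and Plcb2 (-2.02). For the first 5 genes each step was larger than the SD of either neighbour. Ptgs1, Alox5ap and Plcb2 lie at or under the testing threshold, where the libraries of a gene are drawn together and SDs are understated. Their order is therefore not read. Dclk1, spread over 296542 bp, thus ranked well under Trpm5 and Avil per length although its unscaled value was close to that of Trpm5.

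Beyond the 9, 65 other genes of the tuft programme were listed from general knowledge, with earlier results of these data known. Of these, 62 were in the table and 52 were tested. Against ENRI 10 were higher in RANKL (19.2%, where 10.4% of all genes were) and 6 lower (11.5%, where 10.5% of all genes were lower), with a median difference of 0.12. Against WENRC 8 were higher (15.4%, where 8.53% of all genes were) and 3 lower (5.77%, where 3.62% of all genes were lower), with a median of 0.04. Between WENRC and ENRI 4 were higher in WENRC (7.69%, where 4.85% of all genes were) and 8 lower (15.4%, where 9.74% were), with a median of -0.00. Calls thus fell in both directions in each comparison.

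By role, the taste cascade had 9 of 12 genes tested and 1 called in each RANKL comparison (11.1%). Of all genes, 20.9% were called in either direction against ENRI and 12.1% against WENRC. The gene called was the phospholipase gene Plcg2 (0.84 over ENRI, FDR 0.0122, and 1.51 over WENRC, FDR 0.00347). The receptor gene Sucnr1 and the G protein gene Gnat3 were under the threshold, and Ffar3 was listed at 0. Gnb3, a G protein subunit gene, was higher in WENRC than in ENRI by 1.28 (FDR 0.019). All 6 genes of eicosanoid and acetylcholine synthesis were tested, and limma called 0 in each comparison. At an unadjusted p under 0.05 there were 0 against ENRI, 1 against WENRC and 2 between WENRC and ENRI, and the authors' adjusted p called 1, 1 and 0. Of all genes, limma called 20.9%, 12.1% and 14.6% in these comparisons, and the authors' adjusted p 19.6%, 27.8% and 12.5%. Alox5, which encodes the 5-lipoxygenase served by Alox5ap, had 7.47 and 7.46 in RANKL, 7.66 and 7.92 in ENRI, and 7.26 and 7.19 in WENRC. It is named although no test called it, because it acts with a member.

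Among factor genes 6 of 9 in the table were tested. Spib, an Ets factor gene that is also a marker of M cells, rose in RANKL by 4.45 over ENRI (FDR 0.000963) and 4.02 over WENRC (FDR 0.00136), and is the only one of the 6 called there. Of the 6 cytoskeletal genes 1 was higher and 3 lower than in ENRI, and 1 was higher and 1 lower than in WENRC. Beside these factor and cytoskeletal counts, 10.4% of all genes were higher and 10.5% lower than in ENRI. Against WENRC 8.53% of all genes were higher and 3.62% lower. Fyb, an adaptor gene also active in leukocytes, rose by 2.57 over ENRI (FDR 0.00227) and 2.24 over WENRC (FDR 0.00371). The keratin gene Krt8 fell by 1.66 against ENRI (FDR 0.00286) and by 0.92 against WENRC (FDR 0.0147). Espn and Vil1, which encode the actin bundlers espin and villin, were lower than in ENRI, with differences of -1.51 (FDR 0.0185) and -0.97 (FDR 0.039). They are named, outside the rule for named genes and after their values were seen, to account for the count, as are Rgs2, Atp2a3 and Fam221a below.

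Of 15 tested genes of signalling and the cell surface, 5 were higher and 1 lower than in ENRI, where 10.4% and 10.5% of all genes were, and 3 were higher than in WENRC, where 8.53% were. Il4ra, a receptor chain for IL-4 and IL-13 through which the type 2 response acts back on the epithelium, had 11.19 and 11.09 in RANKL, 10.13 and 10.09 in ENRI, and 9.16 and 9.22 in WENRC. The 3 cultures did not overlap, and RANKL exceeded ENRI by 1.03 (FDR 0.0054) and WENRC by 1.96 (FDR 0.00166). Kctd12 was higher by 2.49 (FDR 0.00394) and 1.61 (FDR 0.0161), Siglecf, a lectin gene of mouse tuft cells and eosinophils, was higher than WENRC by 1.14 (FDR 0.0141), and Cd24a was higher than ENRI by 1.74 (FDR 0.0096). Bmx, a kinase gene, was lower than ENRI by 1.95 on the log2 scale, with 7.36 and 7.86 in ENRI and 5.64 and 5.67 in RANKL (FDR 0.00477). Il17rb, the IL-25 receptor gene, named for its ligand Il25, ranged from 8.16 to 8.60 over the 6 libraries and was called in no comparison. Of the 10 remaining markers 2 were higher and 2 lower in each RANKL comparison. Of all genes, 10.4% were higher and 10.5% lower against ENRI, and 8.53% higher and 3.62% lower against WENRC. Nrep was higher than in WENRC by 1.78 (FDR 0.0192) and Atp2a3 by 0.72 (FDR 0.0413), and both were also higher than in ENRI. Rgs2 was lower in both comparisons, with differences of -1.47 from ENRI (FDR 0.0118) and -1.06 from WENRC (FDR 0.0384). Fam221a was lower than in WENRC, with a difference of -0.84 (FDR 0.0338), and Trim38 was lower than in ENRI (6.15 and 7.22 in ENRI, against 3.92 and 3.55 in RANKL; FDR 0.00611).

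For H3K27me3 the authors deposited 2 tables of regions, 1 for each direction between RANKL and WENRC, with a fold of at least 2. Over the whole genome, RANKL was the higher culture at 35798 regions and WENRC at 13607. An excess toward RANKL was thus general, and its presence at a gene is not by itself particular to that gene. There are no replicate values for this mark, so the differences have no replicate check. Tags of RANKL are counts of the pooled libraries, from 32.7 M tags, and those of WENRC (36.3 M tags) were scaled by the authors to that depth; folds and p-values below are theirs. A gene without a region may carry the mark at equal levels in both cultures.

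Dclk1 held 12 RANKL-higher and 4 WENRC-higher regions. Its promoter region (chromosome 3, 55045885 to 55046629, mm9, 29 bp before a start site by region centre) had 57 RANKL tags against 26.1 scaled WENRC tags, a fold of 2.18 (authors' p 1.16e-07). A second, in intron 1 (55047348 to 55048379), had 68 tags against 27.9 (fold 2.44, authors' p 1.04e-10). A further pair in intron 6 lay 1659 and 2807 bp from an internal start site of the gene (55266996 to 55267622, 28 tags against 9, fold 3.11; 55268207 to 55268707, 27 tags against 9, fold 3). The remaining 8 lay in introns or beyond the gene's end, and folds of all 12 ran from 2.10 to 4.44. The regions higher in WENRC were weaker in tags (17.1 to 19.8 scaled tags against 3 to 6) and lay 8661 bp or more from a start site: 2 in intron 3, 1 in exon 7 of 7 of NM_001111053 and 1 in exon 14 of 14 of NM_001357468. The 2 directions were thus interleaved along the gene, with RANKL-higher regions near both starts. Over the same gene, transcription in both RANKL libraries was above all other libraries, as it was for 20.3% of all genes. Neither RANKL difference of Dclk1 passed (FDR 0.183 against ENRI and 0.133 against WENRC).

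Ptgs1 held 8 RANKL-higher regions and 1 WENRC-higher region. The 8 ran from -32136 bp relative to the start into intron 2, with the promoter region (chromosome 2, 36085152 to 36085823, mm9) at 39 tags against 18.9 (fold 2.06, authors' p 3.44e-05) and the intron region (36086642 to 36088116) at 91 tags against 45 (fold 2.02, authors' p 1.15e-09). The region with the highest fold, 4.94, lay at -6783 bp (36078693 to 36079633, 40 tags against 8.1). The WENRC-higher region lay 50341 bp downstream of the start, beyond the gene.

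Plcb2 held 3 regions, all higher in RANKL: 1 lay at -2543 bp from its start (118556356 to 118557079, 31 tags against 8.1, fold 3.83) and 2 in introns 2 and 9 (folds 2.13 and 2.41). Alox5ap held 1 of each kind, in intron 3 (30 tags against 10.8, fold 2.78) and just beyond the gene (19.8 scaled WENRC tags against 5, fold 3.96). Gfi1b held 1 region, higher in WENRC, 17519 bp from its start and outside the gene (chromosome 2, 28459733 to 28460233, mm9; 17.1 scaled tags against 5, fold 3.42, authors' p 1.99e-05). Pou2f3, Trpm5, Avil and Il25 held no region in either table.

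**Figure D4:**
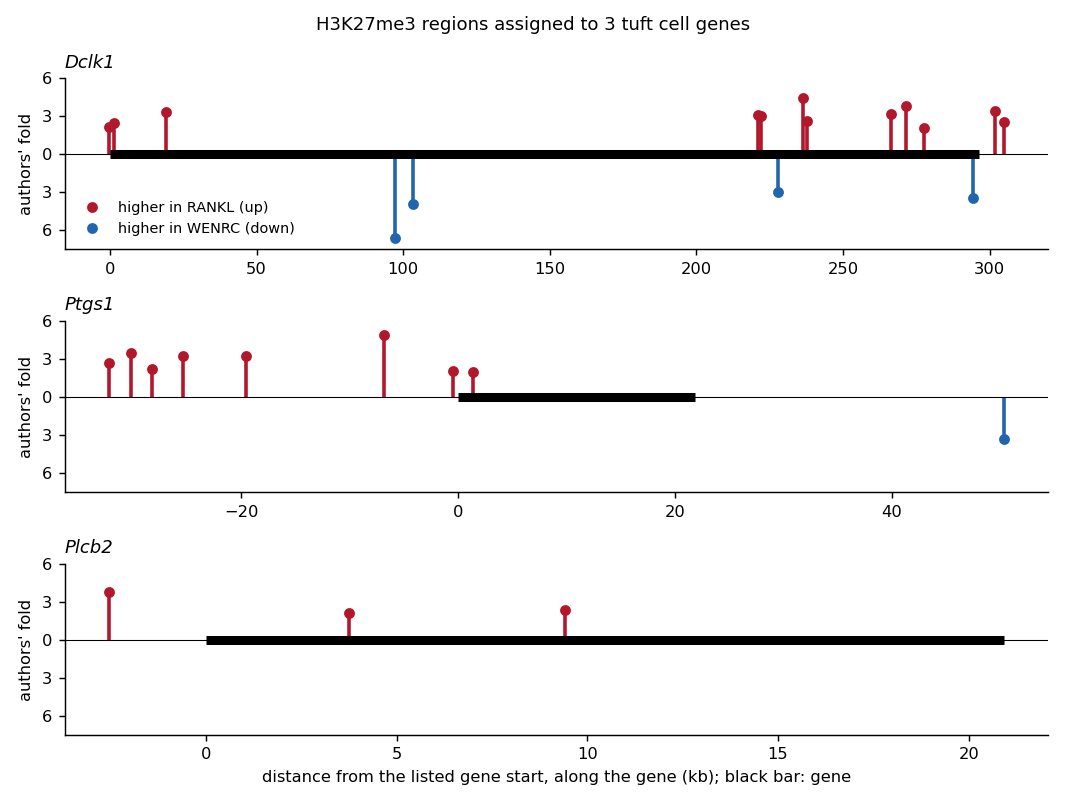
Authors' fold (y axis, drawn up for regions higher in RANKL and down for regions higher in WENRC) against distance from the listed gene start along the gene (x axis, kb) for regions assigned to Dclk1, Ptgs1 and Plcb2; the black bar is the gene. Dclk1 has 12 regions up and 4 down, with those up grouped near its start and from 221 kb onward.

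Of the 9 members 4 held a RANKL-higher region, where 33.7% of all genes did, and 3 held one within 5 kb of a start site, where 19.1% did. A promoter region was present in 2, where 6.04% of genes had one. A WENRC-higher region was present in 4, where 24.0% of genes had one, and in 0 within 5 kb, where 5.44% did. Of the 8262 genes with any RANKL-higher region, 617 (7.47%) had at least the 12 of Dclk1 and 1195 (14.5%) at least the 8 of Ptgs1, and longer genes offer more room for regions. Of the members with a RANKL-higher region near a start, Dclk1 was transcribed above the threshold in all libraries, Ptgs1 lay around it and Plcb2 under it.

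The 250 bases before 2 of the starts of Dclk1 and before that of Ptgs1 are shown because these genes had RANKL-higher regions at annotated promoters; capitals mark CG dinucleotides, which are dense at many promoters that carry H3K27me3 (RefSeq, GRCm38.p6, plus strand; chr3:55242114-55242363, chr3:55461478-55461727 and chr2:36230176-36230425).
Dclk1 first start: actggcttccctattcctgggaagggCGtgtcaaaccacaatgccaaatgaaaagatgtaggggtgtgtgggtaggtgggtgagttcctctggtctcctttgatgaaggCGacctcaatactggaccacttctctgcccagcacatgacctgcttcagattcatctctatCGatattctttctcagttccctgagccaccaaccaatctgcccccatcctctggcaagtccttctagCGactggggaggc
Dclk1 internal start: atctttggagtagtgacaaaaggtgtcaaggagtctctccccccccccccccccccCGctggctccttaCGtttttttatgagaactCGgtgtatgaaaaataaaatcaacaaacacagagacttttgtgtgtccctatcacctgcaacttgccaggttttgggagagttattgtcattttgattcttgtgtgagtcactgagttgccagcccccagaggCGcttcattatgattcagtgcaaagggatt
Ptgs1: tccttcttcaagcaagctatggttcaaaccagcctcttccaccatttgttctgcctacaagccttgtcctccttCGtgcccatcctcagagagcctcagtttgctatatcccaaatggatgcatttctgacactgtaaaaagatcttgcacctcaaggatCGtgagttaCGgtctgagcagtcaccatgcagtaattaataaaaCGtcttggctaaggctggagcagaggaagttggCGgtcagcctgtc
They held 4, 4 and 5 CG dinucleotides, and all 7 member promoters held between 1 (Avil) and 5, where the median of all 32851 promoters was 6. These bases are from another build than the regions, and no position was carried over between them.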

How the data were processed

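GRO-seq was available for 6 libraries (2 each of RANKL, ENRI and WENRC) and H3K27me3 ChIP-seq for RANKL (2 libraries) and WENRC (1). The deposited values are log2: per the file headers, raw reads of each gene on mm9 were counted by the authors with HOMER (analyzeRepeats.pl), and getDiffExpression.pl compared the cultures; Bowtie2 2.3.4.1, HOMER and DESeq2 are named in the submitters' processing notes. The values have the shape of a regularized logarithm, which is inferred from the values and not named. Strand handling is not given in the sources used here, and RANKL reads combine a repeat sequencing, per the file headers, so a sequencing batch cannot be told apart from that culture. The authors' log2 fold changes, p-values and adjusted p-values in the same deposited table run second-named minus first-named culture (sign matched in at least 99.9% of genes differing by over 1) and were turned.

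H3K27me3 regions are HOMER peaks of one culture against the other, per the file headers. The deposited RANKL tags are counts, WENRC tags a signal scaled by the authors by 0.9, folds a ratio of tags by the authors,  and the p-value is the authors'. A floor of 0.5 tags stands where a culture had none; 12 blank rows were dropped.

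limma 3.58.1 (R 4.3.3) was run on the deposited log2 values with a variance trend and all 6 libraries in 1 fit, for genes with at least 2 libraries at log2 of 10 or more (16563 of 24505; 2131 were listed at 0 throughout). P-values are two-sided. The fit was tested on simulated data. Mouse numbers pair ENRI and WENRC by animal: differences between the mice correlated with r of 0.414 across genes, against -0.205 and -0.323 between the number-sharing RANKL libraries and ENRI or WENRC. Alternatives were other libraries in the fit, replicate blocks, filters, scalings, a pseudocount of 10 and the authors' table. The genes named are the 9 members, called genes of the lists (at most 8 per comparison by p) and the 3 closest patterns of Pou2f3 and Dclk1. Of 117 list entries 114 matched the table. The members and lists were chosen with earlier results of these data known.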

Additional observations from a re-analysis of the deposited data

Results flagged for a closer look

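Trpm5 differed between WENRC and ENRI in opposite directions in the 2 mice: by -0.025 in mouse 1 and by 0.753 in mouse 2, on the log2 scale. With 1 library per culture and mouse, this difference between the mice was not tested. The mouse 1 value is close to 0, and the pattern turns on ENRI 2, at 6.12, the lowest of the 6 Trpm5 values. No group had the 4 libraries needed to test for an outlying one.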

How the results depend on the processing

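The number of members called depended on the libraries in the fit. Leaving out 1 library at a time gave 0 to 4 against ENRI, 0 to 3 against WENRC and 0 to 2 between WENRC and ENRI, with 0 in both RANKL comparisons when either RANKL library was out; over all genes, those fits called 111 and 64 against ENRI and 0 and 0 against WENRC. A culture left with 1 library is assumed to vary like the others. For the 52 other tuft programme genes the ranges were 1 to 21, 0 to 16 and 0 to 18, while over all genes those fits called 0.386% to 42.1%, 0% to 31.3% and 0% to 40.1%. Without both mouse 1 libraries, a setting added after seeing the data that takes its spread from RANKL alone, 5, 4 and 3 members and 28, 23 and 23 of the 52 other genes were called in the 3 comparisons, where 60.9%, 44.8% and 51.3% of all genes were. The replicate block on mouse number gave 5 members against ENRI and changed no call other than those of Dclk1 and Trpm5 among the members. Between WENRC and ENRI 12 of the 52 were called, where 14.6% of all genes were. The count was 13 with the replicate block on mouse number, where 21.4% of all genes were called. With only the 4 libraries compared it was 0. With a replicate block on number it was 6 in all 6 libraries and 1 in the 4. Those 3 settings called 0%, 9.09% and 0.749% of all genes. Against WENRC the authors' adjusted p called 17 of the 52, where it called 27.8% of all genes. There limma called 11 of the 52 and 12.1% of all genes. The filter at log2 of 50 left 1 member called against WENRC, since Gfi1b was no longer tested. The cause of the remaining shifts was not tested. Differences that changed sign were uncalled with all libraries and where the sign changed: Dclk1 in WENRC minus ENRI (-1.15 to 0.40 leaving out 1 library at a time, with 0.25 without ENRI 2 and 0.40 without WENRC 1), Trpm5 there (-0.0029 without ENRI 2, up to 0.73 without ENRI 1, which was called at an FDR of 0.0331) and Ptgs1 against ENRI (-0.064 without RANKL 1, up to 0.14). Quantile and upper quartile scaling changed no member's call. For H3K27me3, an authors' fold of at least 4 left 2 members with a RANKL-higher and 1 with a WENRC-higher region, and 0 had a WENRC-higher region within 5 kb of a start.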
